A study of Homo sapiens with 8 samples.

Results

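ERBB4, NRG1, MAP2, DCC and GRIK1 are 5 long genes that act in the developing nervous system, and the NUP98 regions in and around them were examined in human embryonic stem cells (ESCs) and in neural progenitor cells (NeuPCs) derived from them. A region was assigned to a gene when it overlapped, by at least 1 bp, the hg19 interval of the gene widened by 100 kb on each side. By this rule 4 of the 5704 regions in both lists belonged to the genes, of which 2 came from the 2499 ESC regions and 2 from the 3205 NeuPC regions. The genes are 0.310 to 1.20 Mb long, and their windows add up to 5.20 Mb on 4 chromosomes. They belong to the panel of neural genes that the study drew from its own NUP98-bound genes in NeuPCs, so the choice was made on these samples and is not independent evidence of binding in either cell type.

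The ESCs were the human line HUES6, grown without feeder cells, and the NeuPCs were made from HUES6 through embryoid bodies and rosettes, plated and grown with FGF2. NUP98 was pulled down in both with the same rabbit polyclonal antibody (catalogue number 2292) after fixation in 1% formaldehyde for 10 min, and normal rabbit IgG (catalogue number 2729) was pulled down beside it. Each condition had 1 library and both cell types descend from 1 line, so the spread between replicates is unknown and no test between the cell types was made. The series also holds pull-downs from neurons and IMR90 lung fibroblasts, which were not analysed here. The lists give the place and a score of each region without read numbers, no RNA was measured in this series, and the cell types could not be checked against their markers.

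NUP98 is a mobile nucleoporin that lines the nuclear pore and is also found inside the nucleus. In ChIP-Seq, an antibody recovers the DNA fragments crosslinked to a protein or its partners, and a peak caller reports the places where fragments pile up. ERBB4 is a receptor tyrosine kinase for neuregulins, and NRG1 encodes such a neuregulin. DCC is the receptor through which netrin guides growing axons, GRIK1 encodes a subunit of kainate-type glutamate receptors, and MAP2 is a microtubule-associated protein of dendrites. Genes of this length consist mostly of introns and therefore offer more room for a region than short genes do.

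Regions were found in the windows of 3 of the 5 genes, and in none of them did both cell types contribute. NRG1 held 2 NeuPC regions, ERBB4 and DCC held 1 ESC region each, and MAP2 and GRIK1 held none from either list. Windows of the same lengths laid end to end along the same chromosomes held regions of both lists in 50% of cases for ERBB4, 44.0% for NRG1, 52.7% for DCC, 12.4% for MAP2 and 23.8% for GRIK1. Only the NRG1 regions lay within a gene, so that in NeuPCs 1 of the 5 gene bodies held a region and in ESCs none did. From the density described below, 3.45 ESC and 4.44 NeuPC regions were expected in the gene bodies. Both numbers lie within the exact 95% Poisson intervals of the counts, 0 to 3.69 and 0.242 to 7.22. The study names NRG1 and ERBB4 as examples of neurogenesis genes that NUP98 interacts with in NeuPCs. It also tested GRIK1, NRG1, MAP2 and ERBB4 for NUP98 binding in NeuPCs by quantitative PCR of pulled-down DNA, which does not depend on these lists. The study treats these 4 genes as NUP98 targets in NeuPCs. By the same method it reports another pore protein, NUP133, at GRIK1, NRG1 and MAP2 but not at ERBB4. It reports neither protein at the genes it tested beside GRIK1, NRG1 and MAP2. Whether these lists are the ones from which the study assigned regions to genes is not settled. For each window, an expected number was taken from the number of regions of that list on the chromosome, spread evenly between the first and the last region of both lists. Over the 5 windows, 2 ESC regions were counted (exact 95% Poisson interval 0.242 to 7.22) where 4.31 were expected, and 2 NeuPC regions (same interval) where 5.49 were expected. The ratio of counted to expected regions was 0.464 in ESCs (interval 0.0562 to 1.68) and 0.364 in NeuPCs (interval 0.0441 to 1.32). Both intervals contain 1, and they cover counting error only. Over both lists together, 4 regions were counted where 9.80 were expected. That ratio was 0.408, and its interval (0.111 to 1.05) contains 1 only near its upper end. All of these ratios lay below 1, but neither an excess nor a deficit of regions at these genes was detectable at these counts.

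**Figure D1:**
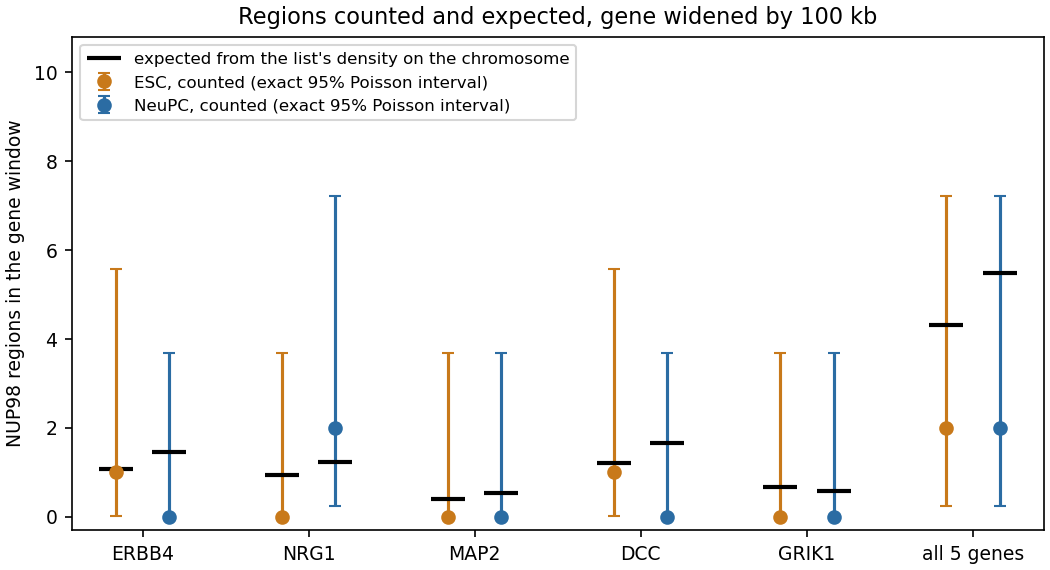
NUP98 regions counted in the window of each gene (the gene widened by 100 kb on each side; points, with exact 95% Poisson intervals as bars) and expected from the density of the list on the chromosome (black dashes), for ESCs and NeuPCs. NRG1 in NeuPCs is the only gene with a count above the expected number, 2 against 1.23, and every expected number lies within its interval.

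NeuPC regions made up 2 of the 4 regions at the genes, or 50% (exact binomial 95% interval 6.76 to 93.2%), against 56.2% of all regions in both lists (interval 54.9 to 57.5%). The share at the genes therefore could not be distinguished from that of the whole lists. With a score of at least 60 only 1 region was left, from NeuPCs. That limit kept 24.9% of the ESC list and 44.6% of the NeuPC list, so that 69.7% of all regions kept were from NeuPCs.

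ERBB4 spans 1.16 Mb on chromosome 2 from 212240442 to 213403352 (hg19), on the minus strand, between the coding genes CPS1 and IKZF2. Its window held 1 ESC region where 1.07 were expected, and no NeuPC region where 1.46 were expected. Windows of this length laid end to end along chromosome 2 held at least 1 ESC region in 66.3% of cases and at least 1 NeuPC region in 75.3%. The ESC region was 126 bp long, from 213408550 to 213408675, and lay 5198 bp beyond the high end of the gene, which on this strand is upstream of its start. Its score of 50.91 was near the lowest of the list (50.09), and 8.40% of ESC regions scored lower. At that distance it lay outside the promoter of that start as the study defines promoters. No start of NRG1 was at hand, so the 4 regions were not ranked by distance to a start. No NeuPC region fell in the gene, and the nearest ones were 1435 kb below it and 1756 kb above it. The ESC region just outside the window lay 178.7 kb below the gene, with a score of 52.17.

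The sequences before the starts of ERBB4 and DCC are shown because these are the 2 genes with an ESC region in their window. Neither sequence contains a region. The GA-box is a motif that the study associated with NUP98, and it was searched here as GAGAG on either strand, with overlapping matches counted. Both sequences are the 250 bases upstream of the start in RefSeq on GRCh38.p14, a different build from that of the regions, and matches are in capitals. The ERBB4 sequence is chr2:212538803-212539052 (minus strand), and the DCC sequence is chr18:52339947-52340196 (plus strand).
ERBB4: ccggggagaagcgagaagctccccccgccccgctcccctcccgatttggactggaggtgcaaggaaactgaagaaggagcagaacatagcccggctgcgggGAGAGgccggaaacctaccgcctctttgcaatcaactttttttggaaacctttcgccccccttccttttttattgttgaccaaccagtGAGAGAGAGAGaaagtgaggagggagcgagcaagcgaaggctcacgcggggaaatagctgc
DCC: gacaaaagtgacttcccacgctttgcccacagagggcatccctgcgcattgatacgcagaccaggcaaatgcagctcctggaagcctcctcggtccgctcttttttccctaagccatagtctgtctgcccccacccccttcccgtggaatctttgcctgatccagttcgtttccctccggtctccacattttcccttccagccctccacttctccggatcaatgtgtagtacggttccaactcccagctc
ERBB4 carried 5 matches, 4 of them within 1 run of 11 bases that lies 61 to 51 bases before the start. DCC carried none. Of the 3 starts listed for MAP2, which has no region in its window, 2 carried a match, with 3 and 4 matches. The motif was present in 53.9% of the 35116 starts in the table, and 1.56% had at least 5 matches. These matches describe the letters of the windows and not NUP98 binding.

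NRG1 spans 1.13 Mb on chromosome 8 from 31497268 to 32622558 (hg19). Its window held 2 NeuPC regions where 1.23 were expected, and no ESC region where 0.949 were expected. Windows of this length on the chromosome held at least 1 NeuPC region in 68.8% of cases and at least 1 ESC region in 60.6%. The first NeuPC region was 117 bp long, from 32183668 to 32183784, at 61.0% of the gene's length from its low end. Its score of 84.78 ranked 80 of 3205 in the NeuPC list, with 97.5% of regions below it. The second was 125 bp long, from 32416277 to 32416401, at 81.7% of the length. Its score of 50.14 ranked 3185 in the same list, just above the lowest score of 50.01. The regions thus ranked far apart in their list, and a gap of 232.5 kb separated them. The highest score of the list was 314.4. The first lay 438.8 kb and the second 206.2 kb from the high end of the gene, and whether they lie in exons or introns was not analysed here. The nearest ESC regions lay outside the gene, 904.2 kb below and 1500 kb above it.

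**Figure D2:**
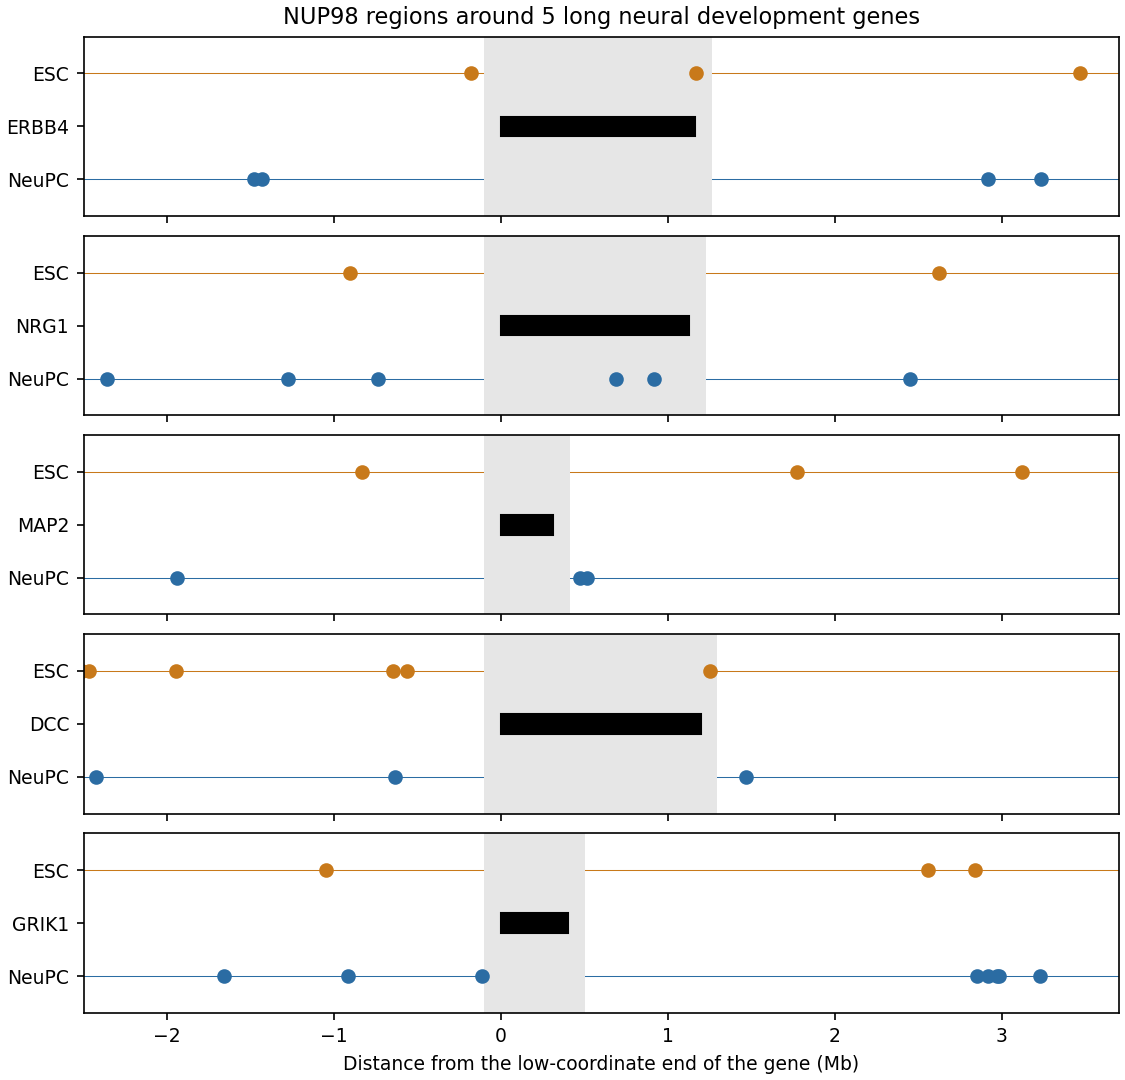
Position of NUP98 regions (dots) around each gene in ESCs and NeuPCs, in Mb from the low-coordinate end of the gene, with the gene as a black bar and its window in grey. Dots fall in the grey windows of ERBB4 and DCC only in the ESC row and in that of NRG1 only in the NeuPC row, where both lie within the gene.

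DCC is the longest of the genes, with 1.20 Mb on chromosome 18 from 49866542 to 51062273 (hg19), on the plus strand, between MEX3C and MBD2. Its window held 1 ESC region where 1.22 were expected, and no NeuPC region where 1.67 were expected. Windows of this length on the chromosome held at least 1 ESC region in 63.6% of cases and at least 1 NeuPC region in 72.7%. The ESC region was 124 bp long, from 51115544 to 51115667, and lay 53.3 kb downstream of the end of the gene. Its score of 51.40 exceeded that of 16.2% of ESC regions. The next NeuPC region was 217.8 kb further on and 271.2 kb from the gene, with a score of 55.70. Upstream of DCC, the nearest regions were 563.4 kb away in ESCs and 637.5 kb away in NeuPCs.

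GRIK1 spans 0.403 Mb on chromosome 21 from 30909254 to 31312282 (hg19), between BACH1 and CLDN17, and its window held no region. The expected numbers were 0.680 in ESCs and 0.585 in NeuPCs, and windows of this length on the chromosome held at least 1 region in 39.7% and 41.3% of cases. A NeuPC region with a score of 53.98 lay just outside the window, 112.0 kb below the gene, from 30797109 to 30797229. On the other side the nearest NeuPC region was 2445 kb away. In ESCs the nearest regions were 1047 kb below and 2152 kb above the gene.

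MAP2, the shortest of the genes, spans 0.310 Mb on chromosome 2 from 210288771 to 210598834 (hg19), on the plus strand, between PTH2R and UNC80. Its window held no region, where 0.399 ESC and 0.546 NeuPC regions were expected. Windows of this length on chromosome 2 held at least 1 ESC region in 31.9% of cases and at least 1 NeuPC region in 40.8%. The nearest NeuPC region lay 161.8 kb downstream of the gene, from 210760595 to 210760724, with a score of 69.17 that exceeded 87.4% of the list. The nearest ESC region was 835.4 kb upstream. With 0 regions counted, the exact Poisson interval reaches 3.69 regions, which is 5.42 and 6.30 times the expected number at GRIK1 and 9.25 and 6.76 times that at MAP2, in ESCs and NeuPCs.

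**Figure D3:**
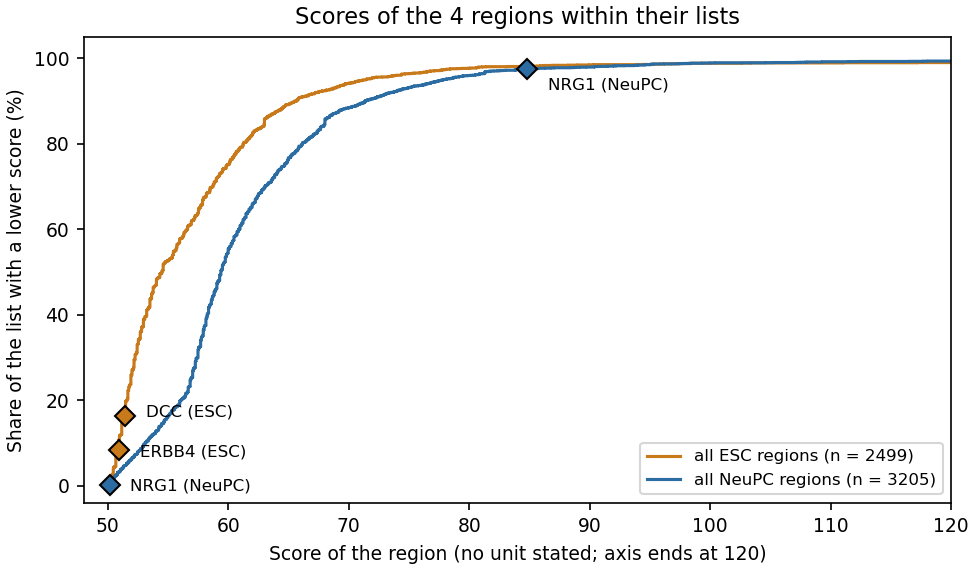
Scores of the 4 regions in the gene windows (diamonds) on the distribution of all scores in their own list, with the score on the x axis and the share of the list with a lower score on the y axis. The ERBB4, DCC and lower NRG1 regions sit at 50.91, 51.40 and 50.14, close to the lowest scores, and the upper NRG1 region at 84.78.

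Of the 4 regions, 3 scored below the median of their list, which was 54.48 in ESCs and 59.38 in NeuPCs. The scores have no stated unit and were ranked within each list. In length the 4 regions, at 117 to 126 bp, were like their lists, whose median was 121 bp in both cell types. The 4 regions overlapped none of the other cell type. The same holds for most regions of both lists, as the median distances below show, and the exact share was not computed. The distance to the nearest region of the other list was 217.8 kb for the region at DCC, 1750 kb for that at ERBB4, and 1591 and 1706 kb for those at NRG1. Over the regions on the autosomes and chromosome X the median distance was 299.0 kb from an ESC region to the nearest NeuPC region and 384.2 kb from a NeuPC region to the nearest ESC region. At least as far from the other list as the region at DCC were 60.2% of ESC regions, and at least as far as the nearer NRG1 region were 7.65% of NeuPC regions. For the region at ERBB4 and the farther one at NRG1 this share was not computed.

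The genes without a region in their body lay in stretches free of regions that exceeded the median stretch of their chromosome in both lists. A stretch that holds a whole gene is at least as long as the gene, so this is in part given by the length of the genes. It is also in part given by the choice of genes without a region, and because any place is more likely to fall in a long stretch than in a short one. The share of each chromosome that lies in stretches this long was not computed, so the ranks below do not measure how unusual the stretches are. The stretch around ERBB4 in NeuPCs was 4.35 Mb long, or 3.74 times the length of the gene, and was the 4th longest of 259 between neighbouring NeuPC regions on chromosome 2, where the median was 0.606 Mb. In ESCs it was 1.35 Mb, 66th of 189, with a median of 0.902 Mb. Around GRIK1 the stretch was 3.60 Mb in ESCs, 3rd of 42, and 2.96 Mb in NeuPCs, 2nd of 36, where the medians on chromosome 21 were 0.371 and 0.558 Mb. Around NRG1 it was 3.53 Mb in ESCs, 7th of 103. Around MAP2 it was 2.61 Mb in ESCs (25th of 189) and 2.41 Mb in NeuPCs (23rd of 259), and around DCC 1.81 Mb in ESCs (17th of 66) and 2.10 Mb in NeuPCs (9th of 91).

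**Figure D4:**
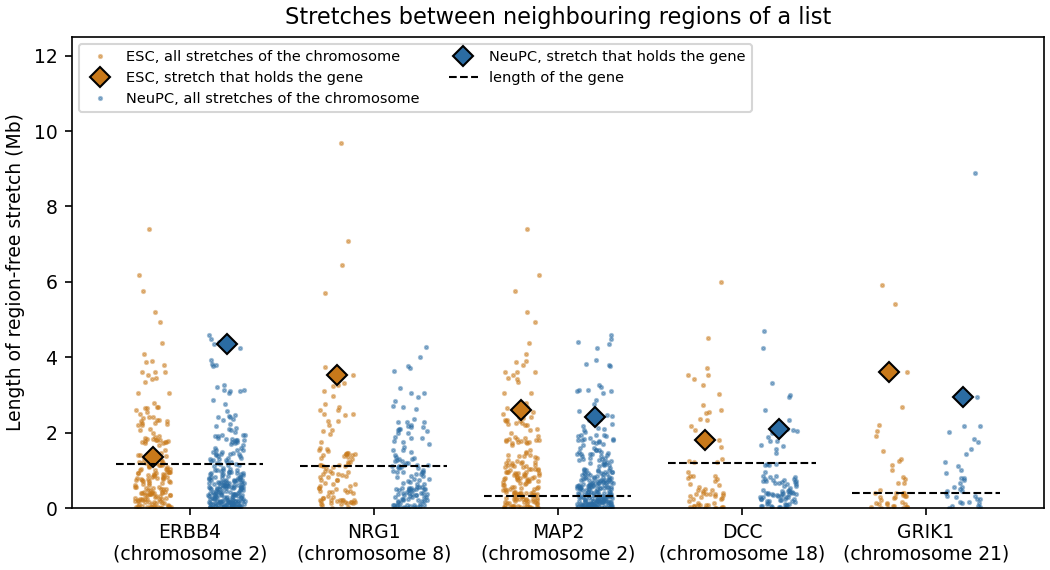
Length in Mb of the stretches between neighbouring regions of a list on the chromosome of each gene (small dots), with the stretch that holds the gene as a diamond and the length of the gene as a dashed line. NRG1 has no NeuPC diamond because it holds NeuPC regions, and the NeuPC stretch around ERBB4, 4.35 Mb, is among the longest of chromosome 2.

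Widening the windows brought in regions from both lists without bringing the counts up to the expected numbers. With 500 kb on each side there were 3 ESC regions where 7.73 were expected (interval 0.619 to 8.77) and 6 NeuPC regions where 9.68 were expected (interval 2.20 to 13.1). With 1 Mb on each side there were 7 ESC regions where 11.7 were expected (interval 2.81 to 14.4) and 9 NeuPC regions where 14.5 were expected (interval 4.12 to 17.1). All 4 intervals contain the expected number.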

How the data were processed

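The data were the authors' deposited lists of NUP98 regions in ESCs and NeuPCs. Mapping and peak calling were done by the authors. The lists name MACS, the study's methods name the Genomatix software with the Audic-Claverie algorithm, and parameters and control library are not given in the sources used here. The submitters' processing notes name hg19 (GRCh37). The deposited value of a region is the score of the peak caller, with no unit stated. The read numbers, which the study shows in a figure, were not used here, so numbers of regions cannot be separated from depth and threshold.

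Positions are counted from 1. Gene intervals were fixed beforehand in hg19. The members, lists and alternatives were chosen with earlier results of these data known. Counts have exact 95% Poisson intervals and shares exact (Clopper-Pearson) 95% intervals. Expected numbers assume an even density between the first and last region of both lists on a chromosome, including stretches such as the centromere to which few reads can be mapped. With the density within 5 Mb of each window instead, 3.81 ESC and 5.41 NeuPC regions were expected over the 5 windows, against 4.31 and 5.49. The effect of leaving out such stretches alone was not tested. Counting was tested on simulated lists. Alternatives were the gene body alone, 500 kb flanks, higher scores, merging within 1 kb, midpoints, other densities, and leaving out each gene. The 1 Mb flank was added after the data were examined.

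Named genes are the 5 members. The other neural genes and the ErbB, netrin, kainate receptor and microtubule genes set down beforehand were not analysed here, since they need hg19 positions. Neighbouring genes are named from RefSeq on GRCh38.p14, where 5 of 5 symbols matched. Upstream sequences of 3 of the 5 genes were in the RefSeq table used. The IMR90 list was not used here because the choice of genes and lists, fixed beforehand, covered ESCs and NeuPCs only. Its coordinates also run past the ends of the human chromosomes as seen in the other lists. Python 3.11.15, numpy 2.4.6, scipy 1.17.1 and matplotlib 3.10.9 were used.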

Additional observations from a re-analysis of the deposited data

How the results depend on the processing

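No paired analysis was possible because there was 1 library per cell type. Of 243 comparisons with an alternative, 199 stayed within the limits set, which were 1.5 times for counts and distances and the interval for ratios and the share. No ratio or share was tested, and in the main setting none had a direction that could be called. Of 130 ratios, 4 crossed 1, all at single genes, namely ERBB4 in ESCs (1.18) and MAP2 in NeuPCs (1.43) with 500 kb flanks, and DCC in ESCs with the density within 5 Mb (1.02) and with 1 Mb flanks (1.08). Over all genes the NeuPC ratio was below the ESC ratio, but above it in 7 of 15 settings, for example at 0.620 against 0.388 with 500 kb flanks. Merging regions within 1 kb or using midpoints changed none of the counts, and took no ratio beyond its interval. Another density enters only the expected number, so it could not change a count or a ratio of 0. It took no other ratio beyond its interval. Ratios of 0 under another density are among the 199 comparisons that stayed within the limits. So are counts and ratios of 0 in the gene bodies, with higher scores or with midpoints, which could not change either. The same holds for total counts on leaving out a gene without regions of that list. The number 199 is therefore no measure of stability. At MAP2 in NeuPCs with 500 kb flanks the ratio of 1.43 stayed within its limit, while the count of 2 did not.

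In the gene bodies alone, the ESC count over all genes, at ERBB4 and at DCC was 0, the ESC ratio was 0, and the NeuPC share was 100%. There 3.45 ESC regions were expected, within the interval of the count (0 to 3.69), and 2 NeuPC regions were counted where 4.44 were expected. Keeping the higher-scoring 50% of each list, or a score of at least 60, gave the same ESC values of 0 and the same share of 100%, with 1 NeuPC region in all, at NRG1. With 500 kb flanks the NeuPC count was 6 over all genes, with 2 at MAP2, 1 at DCC and 1 at GRIK1, and the ESC count was 2 at ERBB4. With 1 Mb flanks there were 7 ESC regions, of which 2 at ERBB4, 3 at DCC, 1 at NRG1 and 1 at MAP2, and 9 NeuPC regions, of which 2 each at MAP2, DCC and GRIK1. Without NRG1, the only gene with NeuPC regions in its window, the NeuPC count, ratio and share were 0. There 4.26 NeuPC regions were expected, above the interval of the count (0 to 3.69). Leaving out that gene fixed the count at 0, so no direction was read from it. Without ERBB4, or without DCC, the ESC count was 1. The remaining changes were the ratios at ERBB4 and DCC in ESCs, which became 0 with their counts. With 0 to 2 regions a gene, 1 region decides each of these values.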
